A study of Saccharomyces cerevisiae with 6 samples.

Results

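The lysine biosynthesis genes of the budding yeast Saccharomyces cerevisiae were described here as 9 genes: LYS20, LYS21, LYS4, LYS12, LYS2, LYS5, LYS9, LYS1 and LYS14. They were chosen by name as the enzymes of the pathway and its activator, and the pathway was proposed with results of these data known, among them the high rank of LYS1 in the comparison of the bud27 deletion with WT. Values of the deletion are therefore given as a description with standard errors and no p-value. All 9 had a row of their own among 5475 gene rows, and all 9 passed the expression filter that left 5279 rows for testing.

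Yeast makes lysine from 2-oxoglutarate by the alpha-aminoadipate pathway, a route that fungi have and animals lack. Homocitrate synthase makes the entry step and is inhibited by lysine, and the middle steps run in mitochondria. The genes are known to answer to the activator Lys14, which needs the intermediate alpha-aminoadipate semialdehyde, and to Gcn4, the activator that answers amino acid starvation.

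The study measured polyadenylated RNA by sequencing near the 3′ ends of transcripts in 3 groups of 2 samples, all labelled as strain BY4741 and grown in rich glucose medium (YPD) at 30 °C to an optical density near 0.8. The groups were untreated WT, a bud27 deletion mutant, and WT kept overnight with rapamycin at 50 ng/ml, a drug used here to block the TOR pathway. BUD27 encodes a prefoldin-like protein. The labels do not say whether the 2 samples of a group were separate cultures, so errors and p-values cover a spread that may be technical. They also do not say which part of BUD27 was removed or how many clones were used. BY4741 is a laboratory strain with an intact LYS2, unlike its sister strain BY4742, and LYS2 reads were present in all 6 libraries.

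Levels are in CPM, which divides reads by the total of their library, after rescaling by TMM factors, called scaled CPM below. Each transcript gives reads near its end whatever its length, so levels of different genes are compared without division by length. The totals behind the values ran from 18153459 to 28774941 reads in WT and rapamycin and were 3212848 and 5088194 in the deletion. The WT libraries held 268 and 246 reads of BUD27, against 6 and 9 for the deletion and 326 and 234 with rapamycin. Of TRP1, a tryptophan synthesis gene, WT held 738 and 626 reads, the deletion 5 and 8, and the rapamycin libraries 1320 and 813, so the deletion samples differed from WT in more than BUD27. Reads of LEU2, a gene deleted in BY4741, numbered 19 and 22 in the deletion against 1 and 14 in WT, so whether the deletion strain is otherwise the same as WT is not settled by its label, and the part of this in the lysine genes was not tested.

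The promoters are shown first because Gcn4 and Lys14 are known to act there. RefSeq's R64 genome gave each window, from 250 bases before the first coding base to 50 bases of coding sequence, and a script searched both strands for TGACTC, the core of the Gcn4 site, and TCCNNNGGA, the core of the Lys14 site. No matches of the 2 motifs overlapped. TGACTC was found in the windows of LYS12, LYS2, LYS1 and LYS14, 4 of 9, against 7.96% of 6020 windows of protein-coding genes. TCCNNNGGA was found in LYS12, LYS9, LYS1 and LYS14, also 4 of 9, against 3.39% of the windows. LYS1 held TGACTC 2 times on the opposite strand, starting 249 and 134 bases before the first coding base, with TCCNNNGGA between them at 196. The windows of LYS20, LYS21, LYS4 and LYS5 held neither. Only exact matches of the 2 motifs were counted. The log2 fold changes in the deletion are set beside them here. LYS1, LYS12 and LYS14, with both motifs, had 4.58, 1.84 and 1.30. LYS9, with TCCNNNGGA only, had 2.62, and LYS2, with TGACTC only, had 2.42. LYS21, LYS20, LYS5 and LYS4, with neither, had 2.47, 2.02, 1.08 and 0.55. A link of motifs and levels was not tested. A match is a description of letters, not evidence of binding. The windows of 5 members are printed 5′ to 3′ along the gene, with motif letters in capitals: LYS1 (chrIX:420687-420986, minus strand), LYS9 (chrXIV:715339-715638, minus strand), LYS12 (chrIX:187583-187882, minus strand), LYS2 (chrII:473877-474176, minus strand) and LYS4 (chrIV:930879-931178, plus strand), which had the smallest fold change in the deletion.
LYS1: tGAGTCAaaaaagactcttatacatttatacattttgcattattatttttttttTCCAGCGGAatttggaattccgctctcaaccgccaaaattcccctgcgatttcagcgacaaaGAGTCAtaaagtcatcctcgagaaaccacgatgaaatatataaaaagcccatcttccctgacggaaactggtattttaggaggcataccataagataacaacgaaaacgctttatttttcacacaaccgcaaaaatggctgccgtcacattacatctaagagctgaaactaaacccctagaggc
LYS9: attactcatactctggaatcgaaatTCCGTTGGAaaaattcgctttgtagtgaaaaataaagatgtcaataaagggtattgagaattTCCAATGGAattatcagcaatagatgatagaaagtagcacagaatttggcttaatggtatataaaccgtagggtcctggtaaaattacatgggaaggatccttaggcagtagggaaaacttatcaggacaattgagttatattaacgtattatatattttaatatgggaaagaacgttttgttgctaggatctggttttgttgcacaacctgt
LYS12: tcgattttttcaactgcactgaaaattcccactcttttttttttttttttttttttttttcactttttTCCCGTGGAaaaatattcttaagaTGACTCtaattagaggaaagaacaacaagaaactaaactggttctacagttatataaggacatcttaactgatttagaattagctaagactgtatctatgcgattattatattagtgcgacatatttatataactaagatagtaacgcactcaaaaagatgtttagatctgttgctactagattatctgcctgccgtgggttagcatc
LYS2: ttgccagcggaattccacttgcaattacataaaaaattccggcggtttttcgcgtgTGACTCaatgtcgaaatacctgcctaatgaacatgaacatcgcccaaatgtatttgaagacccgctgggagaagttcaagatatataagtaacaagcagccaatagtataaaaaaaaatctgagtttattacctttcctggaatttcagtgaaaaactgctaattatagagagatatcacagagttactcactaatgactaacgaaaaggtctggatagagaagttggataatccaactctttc
LYS4: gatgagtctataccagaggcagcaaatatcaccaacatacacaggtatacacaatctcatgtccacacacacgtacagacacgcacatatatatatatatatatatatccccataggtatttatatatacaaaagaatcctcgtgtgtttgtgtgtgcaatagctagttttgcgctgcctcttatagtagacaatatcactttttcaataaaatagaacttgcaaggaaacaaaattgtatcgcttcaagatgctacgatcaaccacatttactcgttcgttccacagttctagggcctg

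In the bud27 deletion all 9 genes lay above WT, and in each the lowest deletion library was above the highest WT library. The last enzyme gene, LYS1, differed most, and the homoaconitase gene LYS4 least. The median log2 fold change of the 9 was 2.02, against -0.02 over all rows tested, and the values ran from 0.55 to 4.58. At a limma adjusted p below 0.05, 9 of 9 were higher, where 21.7% of the 5279 rows tested were higher and 25.5% lower (47.2% in either direction). Because this contrast was in view when the genes were chosen, the count is given without further reading. The summed level of the 9 genes was 543 and 524 scaled CPM in WT, 2860.05 and 2215 in the bud27 mutant, and 618 and 587 with rapamycin. As a share of all gene reads this was 0.0555% and 0.0590% in WT, 0.495% and 0.328% in the bud27 mutant, and 0.101% and 0.0960% with rapamycin.

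**Figure D1:**
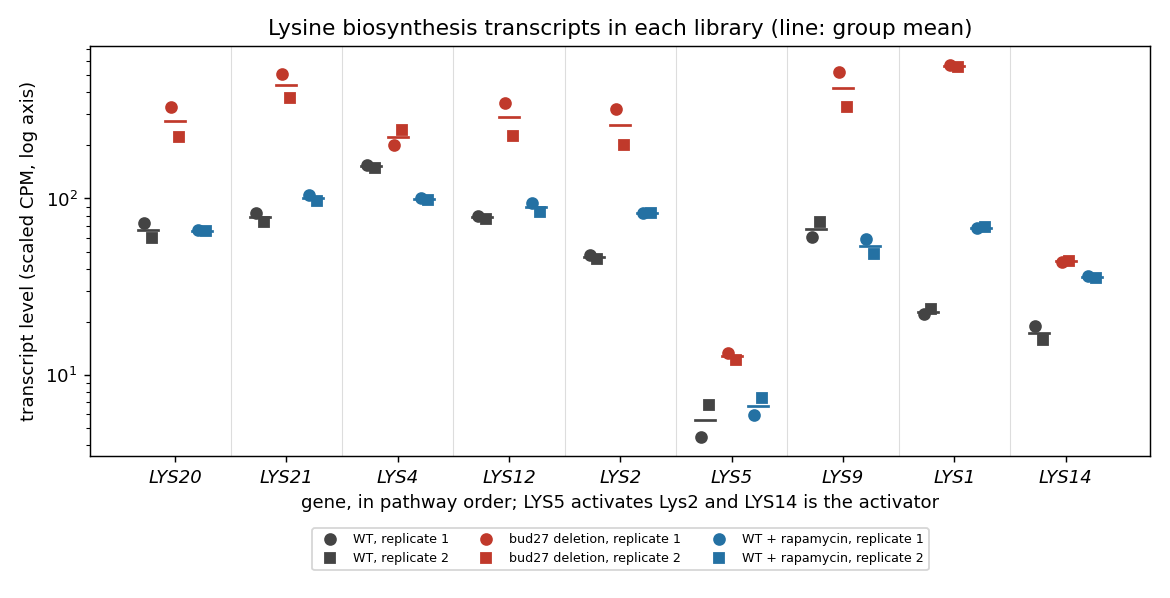
Level of each of the 9 lysine genes (x axis, pathway order) in scaled CPM on a log axis (y axis), with circles for replicate 1, squares for replicate 2 and a line at the mean of the 2. For every gene both deletion libraries lie above both WT libraries, and the rapamycin libraries lie above, among or below WT depending on the gene.

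The entry step is made by the homocitrate synthase isozymes Lys20 and Lys21. LYS20 (YDL182W), on chromosome IV at 133437 to 134723 (plus strand), had 72.5 and 59.9 scaled CPM in WT, 328 and 222 in the bud27 mutant, and 66.5 and 65.0 with rapamycin. The rapamycin libraries lay between the WT libraries, and the deletion libraries stood apart. Its log2 fold change was 2.02 (SE 0.20) in the deletion and -0.00 (SE 0.20, limma adjusted p = 0.99) after rapamycin. LYS21 (YDL131W), on chromosome IV at 227393 to 228715 (plus strand), had 82.9 and 73.2 scaled CPM in WT, 509 and 372 in the bud27 mutant, and 105 and 97.3 with rapamycin. Here the rapamycin libraries lay just above WT without overlap, but the difference did not pass the test. The log2 fold change of LYS21 was 2.47 (SE 0.17) in the deletion and 0.37 (SE 0.17, adjusted p = 0.12) after rapamycin, where it passed the test without deletion replicate 1 (0.39, adjusted p = 0.017) or deletion replicate 2 (0.37, adjusted p = 0.021).

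The balance of the isozymes differed between groups. The ratio of LYS20 to LYS21 was 0.875 and 0.819 in WT, 0.645 and 0.597 in the bud27 mutant, and 0.636 and 0.668 with rapamycin. LYS21 was thus the more abundant transcript in all 6 libraries, and the ratio was lower in the other 4 libraries than in either WT library. A comparison of 2 samples with 2 cannot pass a permutation test at 0.05, and no test was made. The ratio does not depend on the scaling between libraries. The genes share a run of 278 identical bases within their last 1000 coding bases and one of 48 within the last 300, but none over 8 in the 200 bases after the stop codon, so reads from within the coding sequence can be split between them.

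Homoaconitase and homoisocitrate dehydrogenase carry homocitrate on to 2-oxoadipate in mitochondria. LYS4 (YDR234W), the homoaconitase gene on chromosome IV at 931129 to 933210 (plus strand), had 154 and 150 scaled CPM in WT, 202 and 245 in the bud27 mutant, and 101 and 97.7 with rapamycin. It was the most abundant of the 9 in WT, and the 3 groups did not overlap, with the deletion highest and rapamycin lowest. The log2 fold change of LYS4 was 0.55 (SE 0.14) in the deletion, a call that was lost without WT replicate 1 (0.57) or WT replicate 2 (0.52). After rapamycin it was -0.61 (SE 0.14, adjusted p = 0.0079). The fall of LYS4 after rapamycin depends on the scaling, with a log2 fold change of -0.01 (adjusted p = 0.95) on the deposited CPM, and did not pass without WT replicate 1 (-0.59, adjusted p = 0.058), rapamycin replicate 1 (-0.61, adjusted p = 0.055) or rapamycin replicate 2 (-0.57, adjusted p = 0.069). LYS12 (YIL094C), the homoisocitrate dehydrogenase gene on chromosome IX at 186517 to 187632 (minus strand), had 79.5 and 76.6 scaled CPM in WT, 349 and 227 in the bud27 mutant, and 94.7 and 83.8 with rapamycin. The deletion libraries were again far above the others. Its log2 fold change was 1.84 (SE 0.20) in the deletion and 0.19 (SE 0.20, adjusted p = 0.47) after rapamycin. LYS12 ends 147 bases from the converging gene PRK1, which stood at 0.74 (SE 0.22) in the deletion and 0.35 (SE 0.22) after rapamycin.

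Aminoadipate is then reduced by Lys2, which works only after Lys5 has attached its phosphopantetheine group. LYS2 (YBR115C), on chromosome II at 469748 to 473926 (minus strand), had 47.8 and 45.6 scaled CPM in WT, 321 and 202 in the bud27 mutant, and 82.7 and 83.0 with rapamycin. The groups did not overlap, and rapamycin lay between WT and the deletion. The log2 fold change of LYS2 was 2.42 (SE 0.21) in the deletion and 0.81 (SE 0.21, adjusted p = 0.013) after rapamycin. LYS2 ends 127 bases from the converging gene RAD16, which stood at -0.81 (SE 0.21) in the deletion and 0.85 (SE 0.21) after rapamycin. Whether the counting used strand is not given, so reads of RAD16 may be counted in LYS2 or the reverse. The part of this in the rapamycin value of LYS2 was not tested. The rapamycin call of LYS2 was lost without WT replicate 1 (0.85, adjusted p = 0.076) and without WT replicate 2 (0.78, adjusted p = 0.093).

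LYS5 (YGL154C), on chromosome VII at 215278 to 216096 (minus strand), was the rarest member in every library, with 91 and 98 reads in the WT libraries, 48 and 62 in those of the mutant and 204 and 184 with rapamycin. These reads came to 4.41 and 6.71 scaled CPM in WT, 13.3 and 12.1 in the bud27 mutant, and 5.94 and 7.36 with rapamycin. WT and rapamycin overlapped. Its log2 fold change was 1.08 (SE 0.22) in the deletion and 0.24 (SE 0.22, adjusted p = 0.40) after rapamycin. LYS5 ends 66 bases from the converging gene CDC43, for which WT held 561 and 361 reads and the deletion 78 and 109, not scaled. The log2 fold change of CDC43 was -0.26 (SE 0.14) in the deletion and -0.66 (SE 0.14) after rapamycin. Because the use of strand is not given, reads of CDC43 may be counted in LYS5 or the reverse. The same limit holds for LYS12, LYS1 and LYS14, which also have converging neighbours. That of LYS14, MRH1, ends 627 bases away. WT held 10362 and 6663 reads of MRH1 against 388 and 230 of LYS14. MRH1 stood at -0.50 (SE 0.14) in the deletion and -0.49 (SE 0.14) after rapamycin.

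The last steps pass through saccharopine. LYS9 (YNR050C), the saccharopine reductase gene on chromosome XIV at 714048 to 715388 (minus strand), had 60.2 and 73.4 scaled CPM in WT, 519 and 332 in the bud27 mutant, and 58.8 and 48.4 with rapamycin. In scaled CPM its deletion libraries lay farther apart than those of the other members, and still both lay above WT. The log2 fold change of LYS9 was 2.62 (SE 0.22) in the deletion and -0.31 (SE 0.22, adjusted p = 0.29) after rapamycin.

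LYS1 (YIR034C), the saccharopine dehydrogenase gene that ends the pathway, lies on chromosome IX at 419615 to 420736 (minus strand). Its reads numbered 454 and 343 in the WT libraries, 2071 and 2869 in those of the mutant and 2325 and 1720 with rapamycin, although the deletion libraries were much shallower. This gave 22.01 and 23.5 scaled CPM in WT, 575 and 559 in the bud27 mutant, and 67.7 and 68.8 with rapamycin, or 22.7 ± 1.04, 567 ± 11.1 and 68.3 ± 0.783 (SD, n = 2). The libraries of each group lay close together and the groups far apart. The log2 fold change of LYS1 was 4.58 (SE 0.12) in the deletion, the place 7 from the top among 5279 rows, and 1.54 (SE 0.12, adjusted p = 5.6e-05) after rapamycin. The converging neighbour of LYS1, MGA2, ends 149 bases away and differed the other way in the deletion, with a log2 fold change of -0.64 (SE 0.16). After rapamycin MGA2 stood at 0.48 (SE 0.16), in the same direction as LYS1.

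LYS14 (YDR034C), the gene of the pathway's activator, lies on chromosome IV at 509737 to 512109 (minus strand). It had 18.8 and 15.7 scaled CPM in WT, 43.6 and 44.4 in the bud27 mutant, and 36.1 and 35.6 with rapamycin. The deletion and rapamycin libraries all lay above WT, with the deletion slightly higher. The log2 fold change of LYS14 was 1.30 (SE 0.14) in the deletion and 1.02 (SE 0.14, adjusted p = 0.00082) after rapamycin, and 0.29 (SE 0.14) between the deletion and rapamycin. GCN4, whose protein level is set mainly by translation, had 904 and 866 scaled CPM in WT, 1398 and 1716 in the bud27 mutant, and 1785 and 1766 with rapamycin. GCN4 transcript was thus higher in both groups, with log2 fold changes of 0.81 (SE 0.17) and 1.004 (SE 0.17, adjusted p = 0.0022). The call of GCN4 in the deletion was lost without either WT replicate (0.83 and 0.78).

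**Figure D2:**
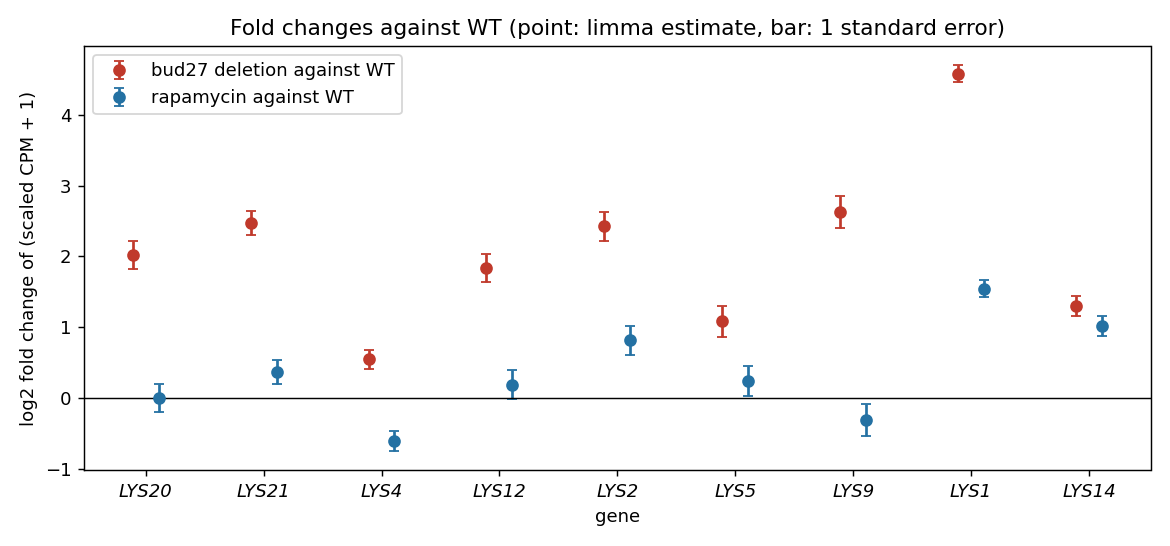
Log2 fold change of scaled CPM + 1 (y axis) of each gene (x axis) in the bud27 deletion (red) and after rapamycin (blue), both against the same WT libraries, with bars of 1 standard error. Deletion values run from 0.55 to 4.58 and rapamycin values from -0.61 to 1.54, and the points come closest together for LYS14.

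After rapamycin 3 of the 9 genes rose (LYS1, LYS14 and LYS2), 1 fell (LYS4) and 5 did not pass the test, where 24.4% of all rows rose and 21.5% fell (45.9% in either direction). The median log2 fold change of the 9 was 0.24, against 0.05 over all rows. These directions are relative to the bulk of transcripts. Without TMM factors the median of all rows was 0.60 instead of 0.05, 2886 rows were called higher and 432 lower in place of 1286 and 1135, and 7 of the 9 lysine genes were higher and 0 lower. Relative to WT in the deletion that scaling moved the median of all rows from -0.02 to 0.38 and the calls from 1147 higher and 1345 lower to 2245 and 704, and all 9 lysine genes were higher either way. LYS1, LYS14 and LYS2 were higher after rapamycin on both scales.

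The deletion and rapamycin comparisons share the WT libraries, so their values are set side by side and not correlated. In the direct comparison of the deletion with rapamycin 8 of the 9 were higher in the deletion, where 25.6% of all rows were higher and 29.4% lower (55.1% in either direction), and LYS14 did not pass. This count rests on the same deletion libraries that were in view when the genes were chosen, so it too is given without further reading. The log2 fold changes were 3.03 (SE 0.12) for LYS1, 2.94 (SE 0.22) for LYS9, 2.10 (SE 0.17) for LYS21, 2.02 (SE 0.20) for LYS20 and 1.16 (SE 0.14) for LYS4. LYS12 at 1.65, LYS2 at 1.61 and LYS5 at 0.84 made up the rest. LYS5 was not called there without rapamycin replicate 1 (0.72).

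The order of the genes changed with the group. In WT, LYS4 at a mean of 152 scaled CPM led, followed by LYS12 (78.1), LYS21 (78.0), LYS9 (66.8), LYS20 (66.2), LYS2 (46.7), LYS1 (22.7), LYS14 (17.3) and LYS5 (5.56). LYS12 and LYS21 overlapped in their libraries, as did LYS21 with LYS9 and LYS9 with LYS20. In the deletion LYS1 (567) led, followed by LYS21 (441), LYS9 (425), LYS12 (288), LYS20 (275), LYS2 (262), LYS4 (223), LYS14 (44.0) and LYS5 (12.7). The libraries of LYS21 and LYS9 overlapped, as did those of each neighbouring gene from LYS9 down to LYS4, while LYS1 was above and LYS14 below without overlap. After rapamycin LYS21 (101) and LYS4 (99.2) overlapped at the top, and LYS12 (89.2), LYS2 (82.9), LYS1 (68.3), LYS20 (65.7), LYS9 (53.6), LYS14 (35.9) and LYS5 (6.65) followed without overlap between neighbours.

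**Figure D3:**
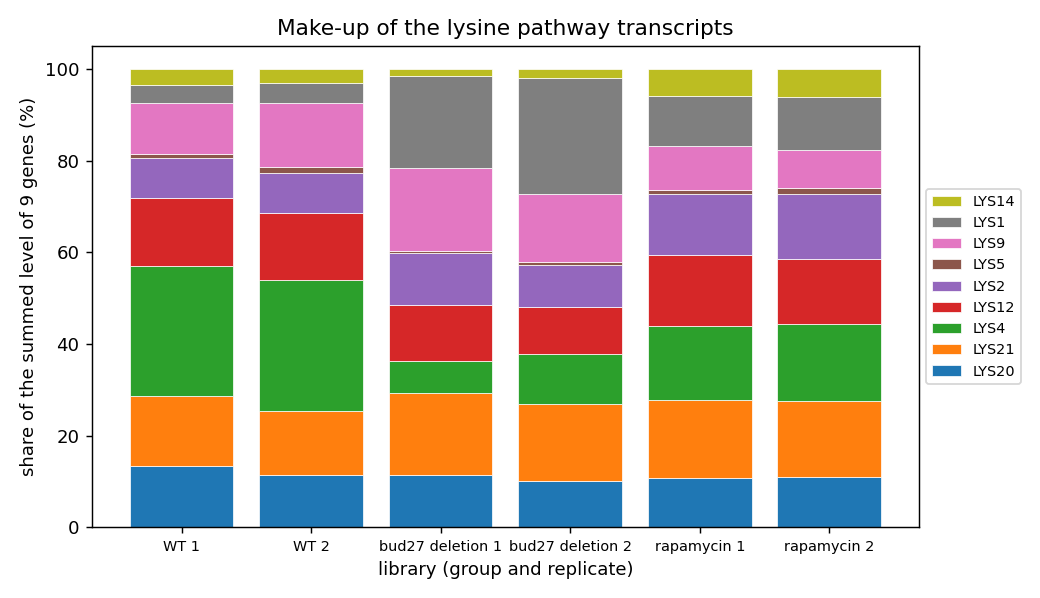
Share of each gene (colour) in the summed level of the 9 lysine genes (y axis, percent) in each of the 6 libraries (x axis). LYS4 takes 28.5% in both WT libraries, 7.06% and 11.1% in the deletion, then 16.3% and 16.7% with rapamycin, while LYS1 goes from 4.06% and 4.48% to 20.1% and 25.2% and to 10.96% and 11.7%.

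The ratio of LYS1 to LYS4, which does not depend on the scaling, was 0.142 and 0.157 in WT, 2.84 and 2.28 in the bud27 mutant, and 0.672 and 0.704 with rapamycin. This ratio differed between the groups by more than between libraries of a group, without a test. It joins the members with the largest and smallest fold change in the deletion, so its shift there follows from that choice. It does not speak for every member. The share of LYS20 in the summed level overlapped between WT and the deletion, and those of LYS12 and LYS5 between WT and rapamycin. The deletion libraries differed from each other in level. In 7 of the 9 genes replicate 1, the shallower library, was the higher one, LYS4 and LYS14 being the exceptions, with a median log2 difference of 0.45 against 0.01 over all rows. Leaving out either deletion library left all 9 genes called higher.

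Of 12 other genes listed for lysine metabolism and transport, 11 were tested and VBA3 was not analysed here. In the deletion 4 were higher, 4 lower and 3 did not pass, where 21.7% of all rows were higher and 25.5% lower. After rapamycin 3 rose, 2 fell and 6 did not pass, shares near the 24.4% and 21.5% of all rows. This list was also chosen with earlier results of these data known. ARO8, an aminotransferase gene whose product can form aminoadipate, had 239 and 201 scaled CPM in WT, 1030.3 and 1045 in the bud27 mutant, and 215 and 203 with rapamycin. Both deletion libraries lay far above WT, with log2 fold changes of 2.24 (SE 0.14) in the deletion and -0.07 (SE 0.14, adjusted p = 0.71) after rapamycin. On the deposited CPM ARO8 was called higher after rapamycin (0.53, adjusted p = 0.0066).

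The carriers that move 2-oxoglutarate and 2-oxoadipate across the mitochondrial membrane differed in opposite directions. ODC1 had 42.4 and 38.1 scaled CPM in WT, 8.60 and 14.0 in the bud27 mutant, and 103 and 146 with rapamycin, with log2 fold changes of -1.78 (SE 0.24) and 1.58 (SE 0.24, adjusted p = 0.0013). ODC2 had 56.5 and 40.4, 187 and 173, and 42.2 and 37.4, with log2 fold changes of 1.89 (SE 0.17) and -0.26 (SE 0.17, adjusted p = 0.26). ODC1 was low and ODC2 high in the deletion, and ODC1 was high after rapamycin. The directions of the calls for ODC1 and ODC2 were the same on the deposited CPM.

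The other genes of this list act mainly in transport and use of lysine. LYP1, the lysine permease gene, had log2 fold changes of -0.62 (SE 0.14) in the deletion, not called on the deposited CPM (-0.18) or without WT replicate 2 (-0.59), and 0.09 (SE 0.14, adjusted p = 0.64) after rapamycin, where it was called higher on the deposited CPM (0.69, adjusted p = 0.0060). VBA1, a vacuolar basic amino acid transporter gene, stood at 0.05 (SE 0.15) in the deletion and rose by 1.48 (SE 0.15, adjusted p = 0.00021) after rapamycin. KRS1, the cytosolic lysyl-tRNA synthetase gene, stood at 0.47 (SE 0.16) in the deletion and -0.61 (SE 0.16, adjusted p = 0.014) after rapamycin. Both calls of KRS1 were lost without either WT library or either rapamycin library. The deletion call was also lost with only the 2 groups compared (0.50) and with a replicate block (0.47). The rapamycin value of KRS1 was -0.00 (adjusted p = 0.996) on the deposited CPM. MKS1, also called LYS80, a negative regulator of the retrograde response whose loss raises lysine synthesis, did not pass in either, at 0.10 (SE 0.20) and 0.31 (SE 0.20, adjusted p = 0.24), but was called higher after rapamycin on the deposited CPM (0.87, adjusted p = 0.012). The remaining calls lay at -0.63 in the deletion and 1.04 after rapamycin for ALP1, a basic amino acid permease gene, at -0.60 and -0.80 for YPQ1, a vacuolar transporter gene, and at 0.54 in the deletion for VBA2. The deletion call of ALP1 was lost on the deposited CPM, with edgeR or DESeq2, with only the 2 groups compared, and without any 1 of the WT or rapamycin libraries. The deletion call of YPQ1 was lost on the deposited CPM and without WT replicate 1 or deletion replicate 1, and its rapamycin call on the deposited CPM (-0.20) and without WT replicate 1 (-0.66). The deletion call of VBA2 was lost with DESeq2, with only the 2 groups compared, and without any 1 library other than deletion replicate 1. VBA2, at 0.51 after rapamycin (SE 0.18, adjusted p = 0.0501), was called higher there on the deposited CPM (1.07) and under several other alternatives.

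The enzymes that supply 2-oxoglutarate, the pathway's starting compound, were counted as well. Of 7 listed genes 3 were higher in the deletion (PYC2, IDH2 and ACO1) and none lower, where 21.7% of all rows were higher. All 7 rose after rapamycin, where 24.4% of all rows rose. The list was chosen with earlier results of these data known, so these counts are given without further reading. The rapamycin call of PYC2 (0.58) was lost without WT replicate 2 (0.49, adjusted p = 0.072) and without rapamycin replicate 1 (0.55, adjusted p = 0.077). ACO1 was not called in the deletion without either WT library. CIT1, at 0.43 (SE 0.15), fell just short of the threshold there. It was called on the deposited CPM (0.86), with a pseudocount of 0.5 (0.43), with no expression filter (0.47) and with a replicate block (0.43). It was also called without rapamycin replicate 1 or without rapamycin replicate 2 (0.47 each). CIT2, the peroxisomal citrate synthase gene, had 41.3 and 69.7 scaled CPM in WT, 37.7 and 36.0 in the bud27 mutant, and 783 and 925 with rapamycin. PYC1, a pyruvate carboxylase gene, had 65.0 and 77.3, 67.4 and 70.9, and 1076 and 1071. Both were high in the rapamycin libraries only, with log2 fold changes of 3.96 (SE 0.23, adjusted p = 1.4e-05) for CIT2 and 3.90 (SE 0.14, adjusted p = 1.7e-06) for PYC1 against -0.53 (SE 0.23) and -0.04 (SE 0.14) in the deletion. Without WT replicate 1 CIT2 was called lower in the deletion (-0.90), and PYC1 was called higher there on the deposited CPM (0.40).

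**Figure D4:**
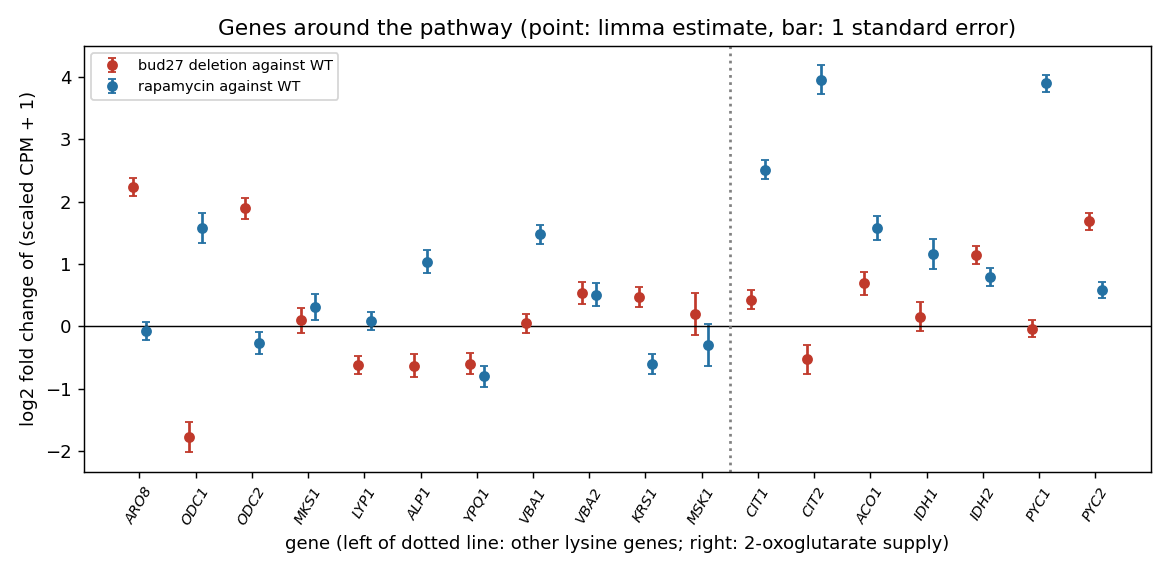
Log2 fold change of scaled CPM + 1 (y axis) with bars of 1 standard error for 11 other lysine genes and 7 genes of 2-oxoglutarate supply (x axis), in the deletion (red) and after rapamycin (blue). ARO8 and ODC2 stand at 2.24 and 1.89 in the deletion, and CIT2 and PYC1 at 3.96 and 3.90 after rapamycin.

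For likeness of pattern, profiles over the 6 libraries were centred on their WT mean and compared by Euclidean distance on the log2 scale. Among the 3 nearest rows of each gene only LYS12, near LYS20 (distance 0.42), was another of the 9. LYS21 lay nearest to ILV6 (0.35), a regulatory subunit gene of branched-chain amino acid synthesis, followed by MET22 (0.42) and SKP2 (0.61). LYS9 lay nearest to ALD5 (0.46), an aldehyde dehydrogenase gene, followed by ARO3 (0.52) of aromatic amino acid synthesis and SRB2 (0.64). LYS1 lay nearest to YER053C-A (0.40), followed by BNA1 (0.93), a gene of NAD synthesis, and ARG7 (1.06), a gene of arginine synthesis. LYS4 lay nearest to SEC13 (0.18), a vesicle coat gene, followed by HAM1 and RPB9. LYS20 lay nearest to SCM4 (0.37), with CIN2 after LYS12. For LYS12 the nearest were CIN2 (0.34), CAF16 and YME2, and for LYS2 they were QCR7 (0.37), SKP2 and ATR1. For LYS5 they were KRE28 (0.325), ESA1 and GLC8. For LYS14 they were a joined row with EMA35 (0.23), then ATP15 and PHO81. Whether neighbours share a function was not tested.

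Arginine and histidine synthesis, also under Gcn4, are set beside the lysine genes by their counts and medians. In the deletion 8 of 8 arginine genes tested and 5 of 5 histidine genes tested were higher, where 21.7% of all rows were, with median log2 fold changes of 3.65 and 2.06, against 2.02 for the 9 lysine genes. After rapamycin 6 of 8 and 3 of 5 rose and none fell, where 24.4% of all rows rose, with medians of 2.21 and 0.77, against 0.24. The ranges overlapped, from 1.22 to 6.58 for arginine genes and 0.55 to 4.58 for lysine genes in the deletion, and from -0.46 to 4.24 and -0.61 to 1.54 after rapamycin. CPA1, HIS3 and HIS6 are in rows that join several features and were left out. These lists too were chosen with earlier results of these data known, so their counts are given without further reading. The differences between the pathways were not tested.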

How the data were processed

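The values deposited by the authors are CPM, in 7247 rows and 6 samples. The tools named in the submitters' processing notes are FastQC, HISAT2, DESeq, DESeq2 and the genome build is R64. Versions, counter, annotation and strand setting were not given in the sources used. All values were whole multiples, within 0.01 reads, of the value of 1 read (100% in each column), so reads were recovered. CUT (925) and SUT (847) rows were left out. Rows passed edgeR's expression filter (edgeR 4.0.16, minimum count 10, 5279 of 5475 rows), CPM were divided by TMM factors (0.767 to 1.20), and log2(scaled CPM + 1) was fitted with limma 3.58.1 (R 4.3.3, trend by abundance), 3 groups in 1 model with 3 residual degrees of freedom. Adjusted p-values follow Benjamini and Hochberg over all rows, with a threshold of 0.05. The log2 scale with a pseudocount of 1 understates changes of rare transcripts such as LYS5. Members, lists and the rule for named genes (all members, the fixed lists, and the 3 rows nearest each member by pattern) were chosen with earlier results of these data known. 1 gene of the list of other lysine genes is not reported here. The fit was tested on simulated data. Alternatives were the scaling, pseudocount, filter, trend, samples fitted, a replicate block, count tests with edgeR and DESeq2 1.42.0, and each library left out. R64 coordinates come from the RefSeq annotation of the same build. Libraries of a group differed by more than sampling noise, with a chi-square per degree of freedom of 26.4 in WT, 17.2 in the deletion and 40.9 after rapamycin.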

Additional observations from a re-analysis of the deposited data

How the results depend on the processing

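In the deletion against WT the 9 genes kept their direction under all 16 alternatives, with 9 called higher in all but 2 of them, the fits without WT replicate 1 or 2 (8 each). Their log2 fold changes ran from 4.37 to 5.001 for LYS1 and from 0.41 to 0.98 for LYS4. The genes were chosen with the deletion in view, so its counts are given without further reading here too. In the main fit 21.7% of all rows were higher in the deletion against WT and 25.6% in the deletion against rapamycin. After rapamycin 24.4% of all rows were higher and 21.5% lower. These shares also change with the setting. In the deletion against rapamycin 8 were called in all but the fit without rapamycin replicate 1 (7). After rapamycin the deposited CPM scale gave 7 higher and 0 lower. Leaving out 1 library gave 2 to 4 higher and 0 to 1 lower. LYS21 also rose with only the 2 groups compared (adjusted p = 0.025). The direction of genes not called changed: LYS20 stood at 0.59 on the deposited CPM, where it was called (adjusted p = 0.039), 0.019 with no expression filter, and -0.14 to 0.13 with 1 library left out, LYS9 stood at 0.28 on the deposited CPM, and LYS5 at -0.018 to 0.50 with 1 library left out, the lowest without WT replicate 1. Where a group is left with 1 library, that library is assumed to vary like the other groups. On the deposited CPM LYS21 (0.97), LYS12 (0.79) and LYS5 (0.75) were called higher. The cause of these changes was not tested, except that the deposited scale moves all genes alike. Same-numbered samples did not deviate together over all rows tested (correlations of -0.05, -0.10 and 0.04), and the main model treats the numbers as names. A shared effect on few genes would not show in these correlations. With a replicate block 9 were higher in the deletion, 3 higher and 1 lower after rapamycin, and 8 higher in the deletion against rapamycin. Count tests on the recovered reads gave the same numbers of lysine genes, and over all rows called 2456, 2657 and 2911 with edgeR and 2361, 2501 and 2807 with DESeq2 in the 3 comparisons, against 2492, 2421 and 2908. The motif TCCNNNGGA was in 5 of 9 promoters at 500 bases, a window added after seeing the data, against 5.95% of all. The deletion libraries hold 48 and 62 reads of LYS5, the fewest of the 9 genes.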

Other observations

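Marker genes of laboratory strains other than TRP1 and LYS2 were also counted. For LEU2 the rapamycin libraries held 1 and 1 reads, against 1 and 14 in WT. MET17 reads numbered 31 and 80 for WT, 2 and 3 for the bud27 mutant, and 0 and 0 with rapamycin. MET17 was called lower in the rapamycin libraries than in WT, with a log2 fold change of -2.01 (SE 0.40, limma adjusted p = 0.0044). Marker reads thus also differed between WT and rapamycin and between the WT libraries. Whether the WT and rapamycin samples are otherwise matched was not tested. The values of MET17 and the other markers are therefore given as differences between libraries. Whether any of them is an effect of the drug was not tested. In the same order URA3 had 70 and 42, 10 and 14, and 66 and 42. Those of ADE2 numbered 1019 and 815, 321 and 376, and 2327 and 1529. Read numbers of all these markers are not scaled, and the deletion libraries were much shallower. Scaled CPM of ADE2 was 49.4 and 55.8 for WT, against 89.0 and 73.2 for the bud27 mutant. Its log2 fold change in the deletion was 0.61 (SE 0.15), called higher, and that of URA3 was -0.14 (SE 0.19), not called. After rapamycin ADE2 stood at 0.29 (SE 0.15, adjusted p = 0.15) and URA3 at -0.56 (SE 0.19, adjusted p = 0.044).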
